A study of Mus musculus with 21 samples.

Results

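Hematopoietic stem cells (HSC) sorted from mouse bone marrow were compared between mice that carried the Etv6 change P216L and mice that carried P216L together with S211I (the double mutant). Both groups carry P216L, so the comparison asks what differed in HSC when S211I was added to it. Its members were the 6 libraries whose labels give HSC and 1 of these genotypes, 3 per group, out of 21 libraries in the series. The other libraries were HSC with wild-type Etv6 (WT, 3 libraries) or S211I alone (2), and megakaryocyte-erythroid progenitors (MEP) of the 4 genotypes. All were made from low-input RNA of cells sorted by flow cytometry. Strain, age, zygosity of the alleles, sort markers and whether each library came from its own animal could not be learned from the labels, so p-values measure the spread between these libraries, which may be technical.

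Etv6 encodes an ETS-family transcription factor that represses its targets through co-repressor complexes. It is needed to maintain adult blood stem cells in bone marrow, and inherited human ETV6 variants cause low platelet counts and a risk of leukemia. The linker between its protein-interaction domain and its DNA-binding domain holds the residue changed by P216L. The coding strand over codons 209 to 218 of transcript Etv6-201 (485 codons, GENCODE annotation of GRCm38.p6) is shown because it places both alleles, with the codons changed by S211I and P216L, in that order, in capitals.

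Etv6-201: aacatgAGCcgccgcctctcgCCAgtggag

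The codon of S211I is AGC, serine, and that of P216L is CCA, proline. The sample titles name the added change S211I and the genotype field P211I, and the title form carries the serine of the reference.

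The double-mutant libraries held 1559513, 369439 and 2250654 estimated counts, and the P216L libraries 406024, 837667 and 850136. P216L replicate 1 stood apart: it had counts in 3988 genes, whereas double-mutant replicate 2, at fewer counts, had 7868. Of the 9471 genes tested, 5765 (60.9%) were at 0 in P216L replicate 1, against 14.1 to 27.4% in the other 5 libraries. The stem cell regulators Procr, Mecom and Hlf were detected in all 6 libraries, and the summed level of 24 stem cell genes was 3379 to 6545 CPM (counts scaled to a library total of 1e+06) in the double mutant and 3408 to 5612 CPM in P216L. Libraries also differed in transcripts of other bone marrow cells. The 20 endothelial and stromal genes summed to 19056 CPM in P216L replicate 1 and 8174 CPM in double-mutant replicate 3. Collagen genes and the osteoblast gene Bglap led these sums, and the other 4 libraries held 204 to 706 CPM. The endothelial markers Cdh5 and Kdr were at 0 in all 6. Pecam1, also an endothelial marker, was at 60.9, 43.6 and 1.58 normalised CPM in the double mutant and 0, 116 and 0 in P216L. Erythroid genes summed to 45291 CPM in P216L replicate 3 and to 9796 to 20368 CPM elsewhere. Neutrophil genes summed to 4607 and 2750 CPM in double-mutant replicates 1 and 2 and to 174 to 1136 CPM in the others. Summed Y-linked genes were 10.8 CPM in double-mutant replicate 2 and 191 to 587 CPM in the rest. Their part in the results was tested only by leaving libraries out, by a covariate of the Y-linked sum and by thinning all HSC libraries to equal depth; these last fits called 0 genes each, with 302 higher and 169 lower (covariate) and 248 higher and 73 lower (thinned) at an unadjusted p under 0.05. In bulk RNA, fewer cells of a type and less RNA per cell cannot be told apart.

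**Figure D1:**
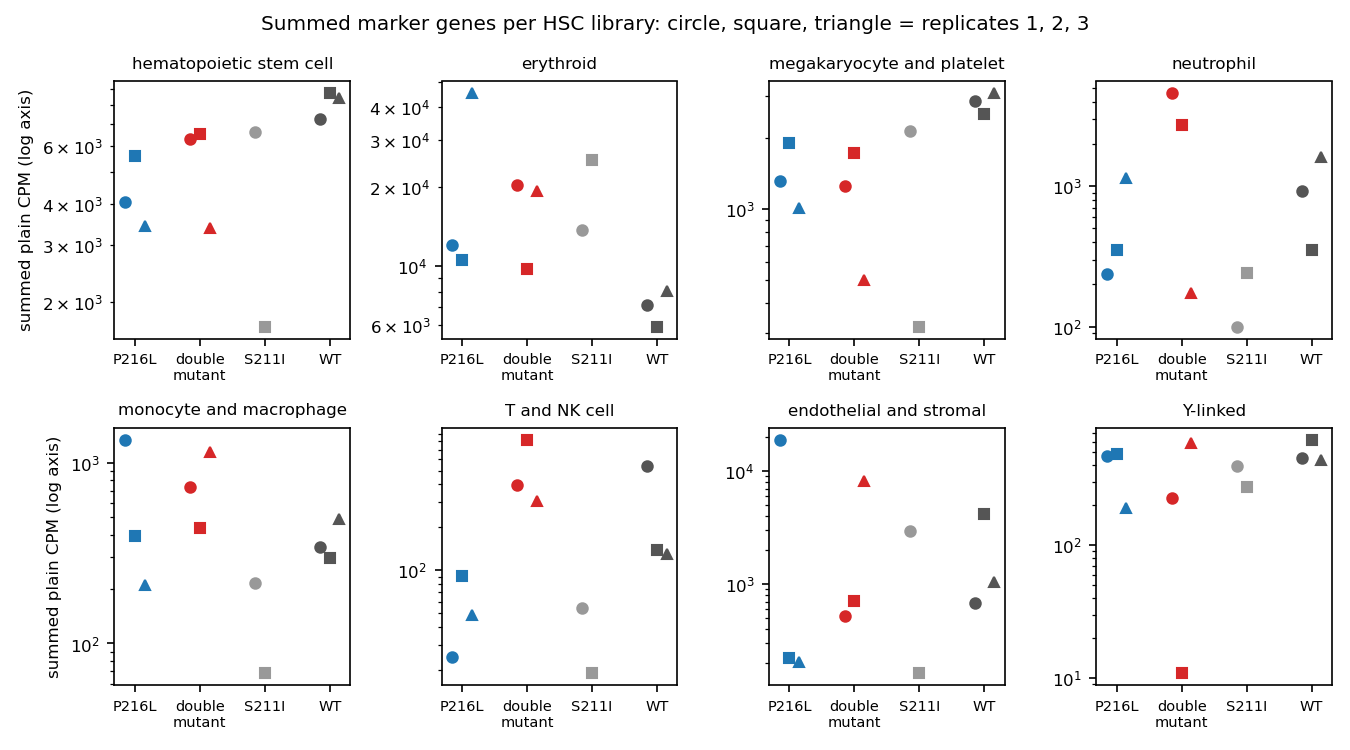
Summed plain CPM (log axes) of marker lists in every HSC library, by genotype; each point is 1 library and its shape the replicate number. P216L replicate 1 (19056 CPM) and double-mutant replicate 3 (8174 CPM) are highest for stromal genes, and P216L replicate 3 (45291 CPM) for erythroid genes.

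At an adjusted p of 0.05 (edgeR quasi-likelihood test, Benjamini-Hochberg over 9471 genes), 2 genes (0.0211% of those tested) were lower in double-mutant HSC and 0 (0%) were higher. Lig3, the DNA ligase of single-strand break repair and of mitochondrial DNA, was at 0 in all 3 double-mutant libraries and at 1867, 0 and 39.3 normalised CPM in P216L replicates 1, 2 and 3. Gpx3, a secreted glutathione peroxidase, was at 0 in the double mutant and at 1452, 0 and 4.07 normalised CPM in P216L. The groups overlapped for both genes, because P216L replicate 2 was also at 0. In WT HSC replicates 1, 2 and 3, Lig3 was at 0, 0 and 24.05 normalised CPM and Gpx3 at 0, 753 and 63.4 normalised CPM.

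With the double mutant set at 3 counts over its summed libraries, Lig3 was at least 779-fold lower (adjusted p = 0.000599) and Gpx3 at least 595-fold lower (adjusted p = 0.00919); these bounds leave out the spread between libraries. Both calls rested on P216L replicate 1: without it the edgeR adjusted p was 1 for each. The range of adjusted p across the alternatives was 3.52e-05 to 1 for Lig3 and 4.17e-10 to 1 for Gpx3. The lowest value for Gpx3 came from DESeq2, which gave Lig3 no adjusted p and did not call it. Limma voom with quality weights called neither gene (adjusted p = 0.748 for Lig3 and 0.891 for Gpx3). The same library held the high stromal sum, and Gpx3 is itself on the stromal list. Both calls were also lost without double-mutant replicate 1 or replicate 3, and that of Gpx3 without replicate 2. Without P216L replicate 3, 4 genes were called, the others being Arfgap2 and the translation factor gene Eif4g2, both higher in the double mutant. Lig3 was measured at 60.4 to 106 CPM in all 10 MEP libraries, the double mutant included, so its 0 in double-mutant HSC was not shared by double-mutant MEP.

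The count of calls depended on the tool. DESeq2 called 32 genes higher and 11 lower, limma voom with quality weights called 1 higher and 0 lower, and the edgeR fit to the 6 libraries alone called 0, with 105 higher and 16 lower at an unadjusted p under 0.05. In the fit of all HSC groups, 463 genes (4.89%) were higher and 197 (2.08%) lower at an unadjusted p under 0.05. Every double-mutant library lay above every P216L library for 657 genes (6.94%) and below for 154 (1.63%), and 58.1% of genes had a log2 fold change above 0, with a median of 0.26. Without P216L replicate 1 the unadjusted counts were 224 higher and 161 lower, so the excess of higher genes was smaller without that library.

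The imbalance varied with the level of a gene. The lowest group was 1753 genes with a mean above 0 and under 20 normalised CPM over the 6 libraries. Of these, 109 (6.22%) were above without overlap and 5 (0.285%) below, and 87.2% were at 0 in P216L replicate 1. The share above was largest among the 4610 genes with a mean of 20 to 100 CPM. There, 383 (8.31%) were above and 71 (1.54%) below, and 70.6% were at 0 in that library. Among the 3045 genes with a mean of 100 CPM or more, 165 (5.42%) were above and 78 (2.56%) below, with 18 higher and 20 lower at an unadjusted p under 0.05, and 30.2% were at 0 in that library. From the lowest to the highest level, the median log2 fold change was 1.02, 0.35 and 0.09. In the same order, 61.6, 60 and 54.3% of genes had a log2 fold change above 0. Without P216L replicate 1 these shares were 59.1, 54.2 and 52%, so they still fell with level.

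Of the 12 genes with the smallest p among those higher in the double mutant, none passed the threshold, and 10 were at 0 in all 3 P216L libraries. Klrb1c, a receptor of natural killer cells, was at 287, 635 and 312 normalised CPM in double-mutant replicates 1, 2 and 3 and at 0 in all P216L libraries. The groups did not overlap, the double mutant was at least 277-fold higher, and the edgeR adjusted p was 0.252. DESeq2 and voom both called Klrb1c (adjusted p = 3.42e-05 and 0.00091, in a range of 3.42e-05 to 1 over the alternatives). WT HSC held 0, 139 and 43.7 plain CPM of it, and the MEP libraries 0.177 to 2.85 CPM. It is 1 of a family of near-identical receptor genes among which reads may be split. It is also on the T and NK cell list, of whose 12 genes 10 were among the genes counted. Those 10 summed to 307 to 823 plain CPM in the double mutant and 24.6 to 90.7 plain CPM in P216L. Klrb1c, at the values above, is part of these sums, and a difference without it was not tested. Of the other members, Nkg7 overlapped, at 57.4, 104 and 5.79 against 0, 33.2 and 0 normalised CPM. The T cell receptor gene Cd3e was at 0 in all double-mutant libraries.

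Pigg, an enzyme of glycosylphosphatidylinositol anchor synthesis, was at 106, 213 and 136 normalised CPM in the double mutant and at 0 in P216L. Gemin4, part of the complex that assembles spliceosomal particles, was at 67.3, 57.2 and 154 CPM against 0 throughout. Ube4b, a ubiquitin ligase, was at 87.9, 117 and 25.3 CPM and Vps33a, of the tethering complex for lysosome fusion, at 186, 76.3 and 13.2 CPM, both against 0 in P216L. These 4 genes were detected in every double-mutant library and in no P216L library. By its adjusted p, DESeq2 called Pigg (0.00406), Ube4b (0.0196) and Gemin4 (0.043) but not Vps33a (0.0784), each the lowest value of a range that reached 1 over the alternatives.

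Rabgap1l, a regulator of Rab trafficking proteins, was at 152, 253 and 239 CPM against 0, 0 and 6.78 CPM, a log2 fold change of 6.48 ± 2.30 (SE; edgeR adjusted p = 0.712, and 0.0277 to 1 over the alternatives, lowest with DESeq2). Arhgap15, which restrains Rac, was at 56.7, 910 and 354 against 0, 66.4 and 12.2 CPM, so its groups overlapped. Other genes of this set rested on 1 or 2 libraries. The hypoxia factor Hif1a was at 2.83, 425 and 12.6 CPM, Vps11 at 272, 0 and 6.84 CPM and the Notch inhibitor Numb at 28.3, 0 and 243 CPM. Cyfip1, which links Rac to actin, was at 154, 0 and 351 CPM and Tnfaip3, a brake on NF-kB signalling, at 87.9, 0 and 101 CPM. All 5 were at 0 in P216L, with edgeR adjusted p of 0.477 for Cyfip1 and 0.712 for the others. DESeq2 called Cyfip1 (adjusted p = 0.0137) and Vps11 (0.0207), each again the lowest of a range that reached 1.

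Of the 12 genes with the smallest p among those lower in the double mutant and with at least 10 counts in at least 2 P216L libraries, a minimum that Gpx3 did not meet, Lig3 was the only one past the threshold. Thada came next of these, at 0 in the double mutant and at 610, 114 and 44.8 normalised CPM in P216L replicates 1, 2 and 3, at least 314-fold lower (edgeR adjusted p = 0.712). DESeq2 called it (adjusted p = 0.00019, in a range of 0.00019 to 1 over the alternatives). It was 1 of the genes whose groups did not overlap.

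Taf4b, a subunit of the general transcription factor TFIID, was at 64.2, 111 and 119 CPM in P216L and 0 in the double mutant, the most even of this set. Gmppb, which makes the mannose donor for glycosylation, was at 265, 8.94 and 52.9 CPM in P216L. Slc24a5, an ion exchanger of pigment cells, was at 154, 56.2 and 20.3 CPM. In the double mutant both were at 0, so these groups did not overlap either. DESeq2 called Gmppb (adjusted p = 0.0364, in a range of 0.0364 to 1 over the alternatives).

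The remaining lower genes were at 0 in at least 1 P216L library. Ticrr, a factor for the start of DNA replication, was at 592, 15.3 and 0 CPM and the exonuclease gene Dis3l2 at 644, 79.2 and 0 CPM, both highest in P216L replicate 1. Usp12, Dhx38 and Snx13 were at 0 in P216L replicate 1 and at 203 and 109, 138 and 121, and 202 and 89.5 CPM in replicates 2 and 3. St8sia4, a polysialic acid transferase, was at 24.1, 183 and 0 CPM. The adjusted p was 0.712 for each of these genes. Across the 9471 genes tested, 132 were at 0 in every P216L library and above 0 in every double-mutant library, and 13 showed the reverse. Whatever their level in the other group, 683 were at 0 in every P216L library and 262 in every double-mutant library. P216L replicate 1 alone was at 0 for 60.9% of genes tested. Library totals also differed between the groups, and the part of either in these counts was not tested.

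**Figure D2:**
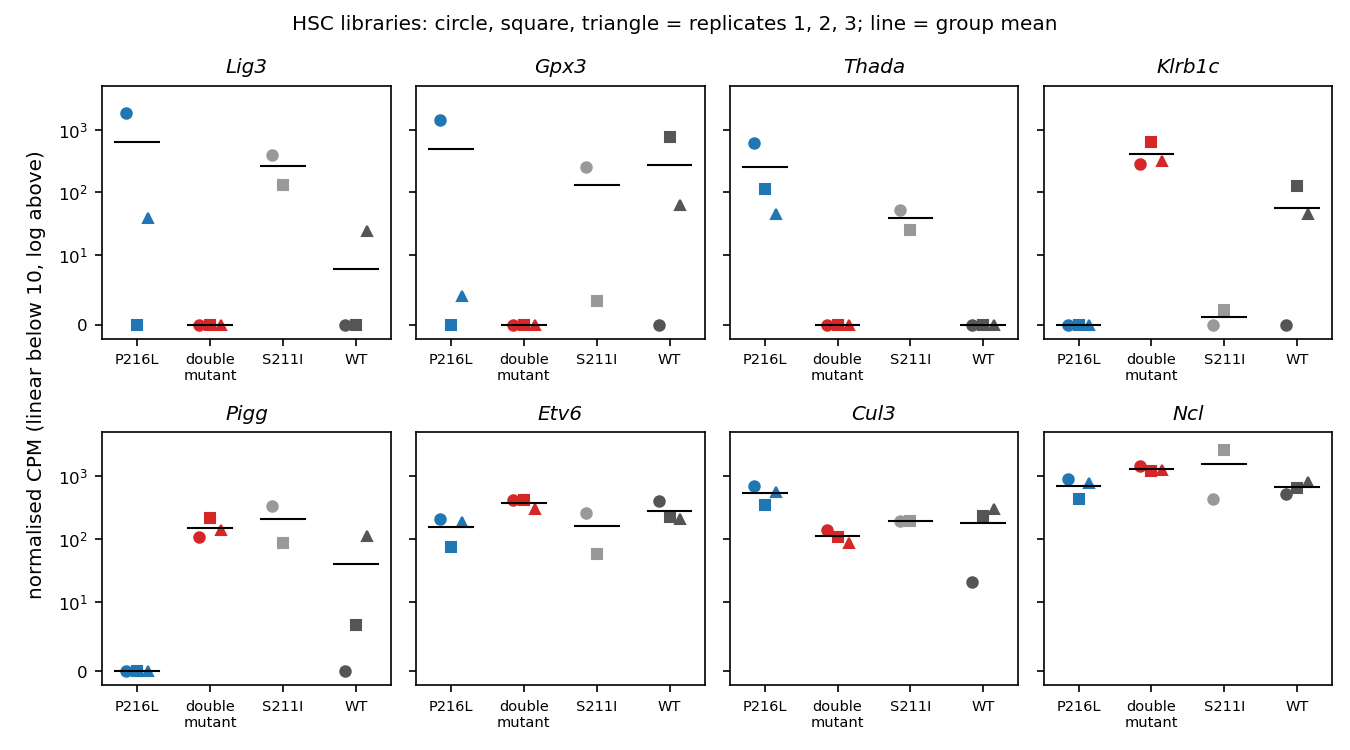
Normalised CPM of 8 genes in each HSC library by genotype (linear below 10, log above); shapes give replicate numbers and lines group means. Among the 6 libraries compared, Lig3 and Gpx3 are highest in P216L replicate 1, Klrb1c and Pigg are above 0 in every double-mutant library and at 0 in P216L, and Etv6, Cul3 and Ncl are detected in all libraries of these genotypes.

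Etv6 itself was at 421, 412 and 298 normalised CPM in double-mutant replicates 1, 2 and 3 and at 205, 74.1 and 189 CPM in P216L. Every double-mutant library was above every P216L library, but the log2 fold change of 1.28 ± 1.26 (SE) was close to its error (edgeR adjusted p = 1). Counts do not separate the alleles. Of 20 ETS-family genes, 14 were tested: 9 were positive and 5 negative, 0 passed the threshold, and the median log2 fold change was 0.65 against 0.26 over all genes.

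Gabpa, a broadly expressed ETS activator, was at 134, 147 and 92.1 CPM against 0, 19.2 and 48.8 CPM, without overlap. Erg, a regulator of stem cell maintenance, was at 0 in the double mutant and at 215, 0 and 29.8 CPM in P216L, whereas Ets2 was at 68.0, 0 and 50.0 CPM in the double mutant and 0 in P216L. Neither passed (adjusted p = 0.712 for each). Fli1, at 215, 283 and 28.4 against 150, 209.5 and 215.7 CPM, overlapped widely.

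Of the 16 co-repressor genes, 15 were tested, with 8 positive, 7 negative and 0 past the threshold; 2 (13.3%, against 6.94% of all genes) lay above and 2 (13.3%, against 1.63%) below without overlap. Hdac1, a histone deacetylase, was at 410, 379 and 818 CPM in the double mutant and 20.1, 213 and 298 CPM in P216L. Tbl1xr1, an exchange factor of the nuclear receptor co-repressor complex, was at 16.3, 177 and 155 against 0, 11.5 and 5.43 CPM. In the other direction, Sap18 of the Sin3 complex was at 30.5, 38.2 and 70.0 against 253, 282 and 175 CPM. The log2 fold changes were 1.59 ± 1.10, 4.32 ± 2.58 and -2.35 ± 1.79 (SE) in that order (edgeR adjusted p between 0.919 and 1).

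Nuclear export and import genes, 27 tested, were spread around 0, with 14 positive and 13 negative, a median of 0.06 and 0 past the threshold; with relative log expression scaling 13 were positive and the median was -0.11. Xpo1, the main export receptor, was at 142, 264 and 99.5 CPM in the double mutant and 2.01, 220 and 478 CPM in P216L. Cse1l, which returns importin alpha to the cytoplasm, was at 103, 180 and 276 against 2.01, 112 and 1.36 CPM.

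Most of the listed Myc target and nucleolar genes serve ribosome assembly, but the list also holds Myc itself and metabolic enzymes such as Cad. Of the 25 tested, 19 were positive (76%, against 58.1% of all genes), 0 passed the threshold and 4 (16%, against 6.94%) lay above without overlap. Their median log2 fold change was 0.41. Nucleolin (Ncl) was at 1477, 1218 and 1268 normalised CPM in the double mutant and 913, 437 and 775 CPM in P216L, a log2 fold change of 0.90 ± 0.58 (SE). Mybbp1a was at 382, 736 and 488 against 0, 290 and 254 CPM and the rRNA methyltransferase Fbl at 212, 125 and 341 against 0, 0 and 25.8 CPM. Cad, the first enzyme of pyrimidine synthesis, was at 84.3, 46.3 and 8.95 CPM against 0.

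The adjusted p values were 1, 0.899, 0.712 and 0.712. Summed over the 25 genes, the level was 7022 to 7108 plain CPM in the double mutant and 4968 to 6504 CPM in P216L, without overlap. Myc itself was at 602, 526 and 469 against 634, 862 and 345 CPM. With each of the 6 libraries left out in turn, 16 of 24 to 19 of 25 tested members were positive.

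Stem cell genes were positive in 16 of 22 tested (median 0.41, 0 past the threshold), and in 12 of 22 (median 0.14) without P216L replicate 1. Ctnnal1 was at 259, 199 and 241 CPM against 0, 111 and 67.8 CPM and Tal1, a master regulator of blood formation, at 31.2, 27.3 and 45.3 against 0, 0 and 13.6 CPM, each without overlap. Lmo2, its partner, was at 1106, 1600 and 720 against 423, 870 and 836 CPM, a log2 fold change of 0.69 ± 0.64 (SE). The defining regulators Procr, Mecom and Hlf overlapped between the groups, at 107.7, 54.5 and 69.5 against 106, 201 and 25.8 CPM for Procr.

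The erythroid, heme and cell cycle lists turned direction without P216L replicate 3, which held the highest erythroid sum. With all libraries, 11 of 26 erythroid genes were positive (median -0.09), 6 of 14 heme synthesis genes (-0.25), 7 of 27 S phase genes (-0.47) and 6 of 26 genes of G2 and mitosis (-0.44), with 0 past the threshold in each. Without that library the counts were 24 of 26 (1.13), 9 of 14 (0.77), 18 of 27 (0.28) and 19 of 26 (0.68). Without double-mutant replicate 2 the erythroid (16 of 26, 0.26) and heme (8 of 14, 0.15) lists turned as well, and the S phase (12 of 27, -0.09) and G2 and mitosis (12 of 26, -0.04) lists lay near 0. The median over all genes moved from 0.26 to 0.66 without P216L replicate 3, and to 0.31 without double-mutant replicate 2. Without P216L replicate 3, 63.8% of all genes were positive, beside 64.3% of heme synthesis genes and 66.7% of S phase genes. The S phase median of 0.28 was then below that of all genes.

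P216L replicate 3 was the highest of the 6 libraries for Fech, Rrm2 and Mcm6. Fech, which inserts iron into heme, was at 805, 278 and 1143 CPM in the double mutant and at 2106, 487 and 3020 CPM in P216L (log2 fold change -1.33 ± 0.60 SE, adjusted p = 0.712). Rrm2, which supplies deoxynucleotides, was at 485, 65.4 and 1010 against 483, 931 and 2828 CPM, and the replicative helicase gene Mcm6 at 393, 155 and 1178 against 471, 1344 and 1551 CPM.

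The mitotic kinase Cdk1 did not overlap, at 135, 164 and 204.7 against 210.6, 207 and 528 CPM (log2 fold change -0.91 ± 1.44 SE). Klf1, the erythroid master regulator, was at 286, 234 and 646 against 885, 588 and 534 CPM. Alas1, the housekeeping first enzyme of heme synthesis, was at 63.8, 2.73 and 22.6 CPM against 0 in P216L.

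**Figure D3:**
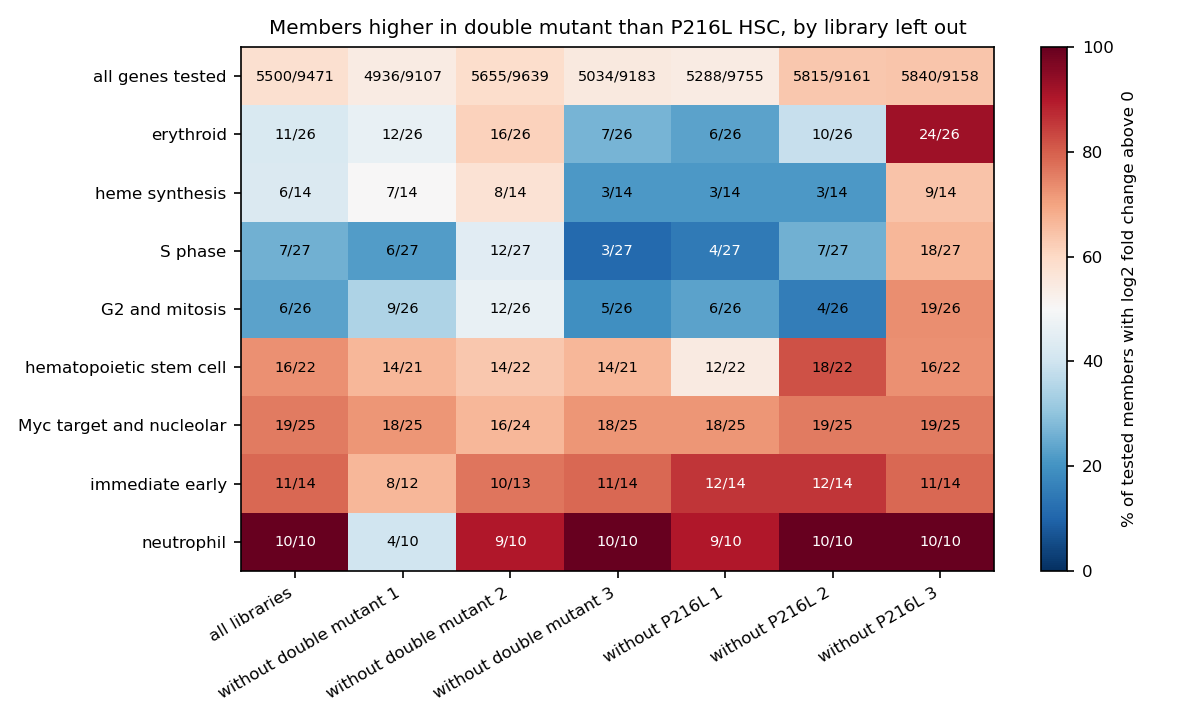
Tested members with a log2 fold change above 0 in double mutant against P216L HSC, for 8 lists and all genes (rows), with all 11 HSC libraries and without each of the 6 compared (columns); cells print positive over tested members, and color gives that share in percent. Erythroid genes go from 11 of 26 to 24 of 26 without P216L replicate 3, neutrophil genes from 10 of 10 to 4 of 10 without double-mutant replicate 1, and Myc target and nucleolar genes have 16 of 24 positive or more.

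Markers of mature blood cells varied between libraries of both genotypes. All 10 neutrophil genes tested were positive (median 2.11, 0 past the threshold), but 4 of 10 (median -0.57) without double-mutant replicate 1. With no low-count filter, 12 of 14 were positive. The granule genes Ngp, at 2244, 196 and 58.4 against 0, 201 and 358 CPM, and S100a8, at 785, 826 and 47.4 against 0, 44.7 and 262 CPM, were high in double-mutant replicate 1 or in replicates 1 and 2. Camp was at 478, 199 and 27.4 against 0, 0 and 17.6 CPM.

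All 7 monocyte genes tested, of 14 listed, were positive (median 3.85, or 2.82 with genes at 0 in a group set to their bound). Without double-mutant replicate 3 it was 1 of 3. Of the 7, 3 were at 0 in every P216L library and could only be positive. Without the low-count filter, 10 of 13 monocyte genes were positive. Summed over the whole list, monocyte genes were highest in P216L replicate 1, at 1342 plain CPM, against 436 to 1154 CPM in the double mutant, and B lymphoid genes overlapped at 120 to 530 against 148 to 522 CPM. Lyz2, the most abundant of them, was at 626, 313 and 770 against 1093, 339 and 189 CPM. The macrophage gene Adgre1 was at 67.3, 0 and 116 CPM against 0 in P216L. Of the 10 mast cell genes, 0 could be tested.

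Megakaryocyte genes were positive in 7 of 14 tested (median 0.15). Pf4, the platelet factor, was at 0 in the double mutant and at 0, 51.1 and 19 CPM in P216L, and Itga2b at 107, 128 and 0 against 0, 62.6 and 121 CPM. Vwf, at 75.1, 0 and 0 CPM, and Gp1ba, at 40.4, 0 and 0 CPM, went the other way, both against 0 in P216L. Of 15 stromal genes tested, 6 were positive (median -0.14), and 11 of 17 without P216L replicate 1. Col1a1 was at 0.709, 0 and 1756 against 3105, 0 and 0 CPM, carried by 1 library in each group.

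Immediate early genes were positive in 11 of 14 tested (78.6%, median 0.93, 0 past the threshold) and glucocorticoid-responsive genes in 10 of 13 (76.9%, 0.82), against 58.1% of all genes. Their sums overlapped. Immediate early genes summed to 1015 to 6970 plain CPM in the double mutant and 1149 to 8091 in P216L. Glucocorticoid-responsive genes summed to 1177 to 6120 and 1529 to 4130 plain CPM in that order. Fos was at 989, 493 and 0.526 against 335, 46.0 and 126 CPM and the phosphatase gene Dusp1 at 1286, 1586 and 141 against 1125, 411 and 167 CPM, so double-mutant replicate 3 lay below every P216L library. Antigen presentation genes were positive in 13 of 19 (0.43), with B2m at 1864, 3249 and 1838 against 1432, 2412 and 1320 CPM. Interferon response genes were positive in 10 of 21 (-0.14), or 15 of 21 without P216L replicate 1. The p53 targets were positive in 6 of 11, with Cdkn1a at 0 against 70.2, 5.11 and 0 CPM. Oxidative phosphorylation genes were positive in 20 of 33 (0.19) and glycolysis and hypoxia genes in 12 of 18 (0.27). None of these lists held a member past the threshold, and Gpx3 was the only called gene on any list.

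**Figure D4:**
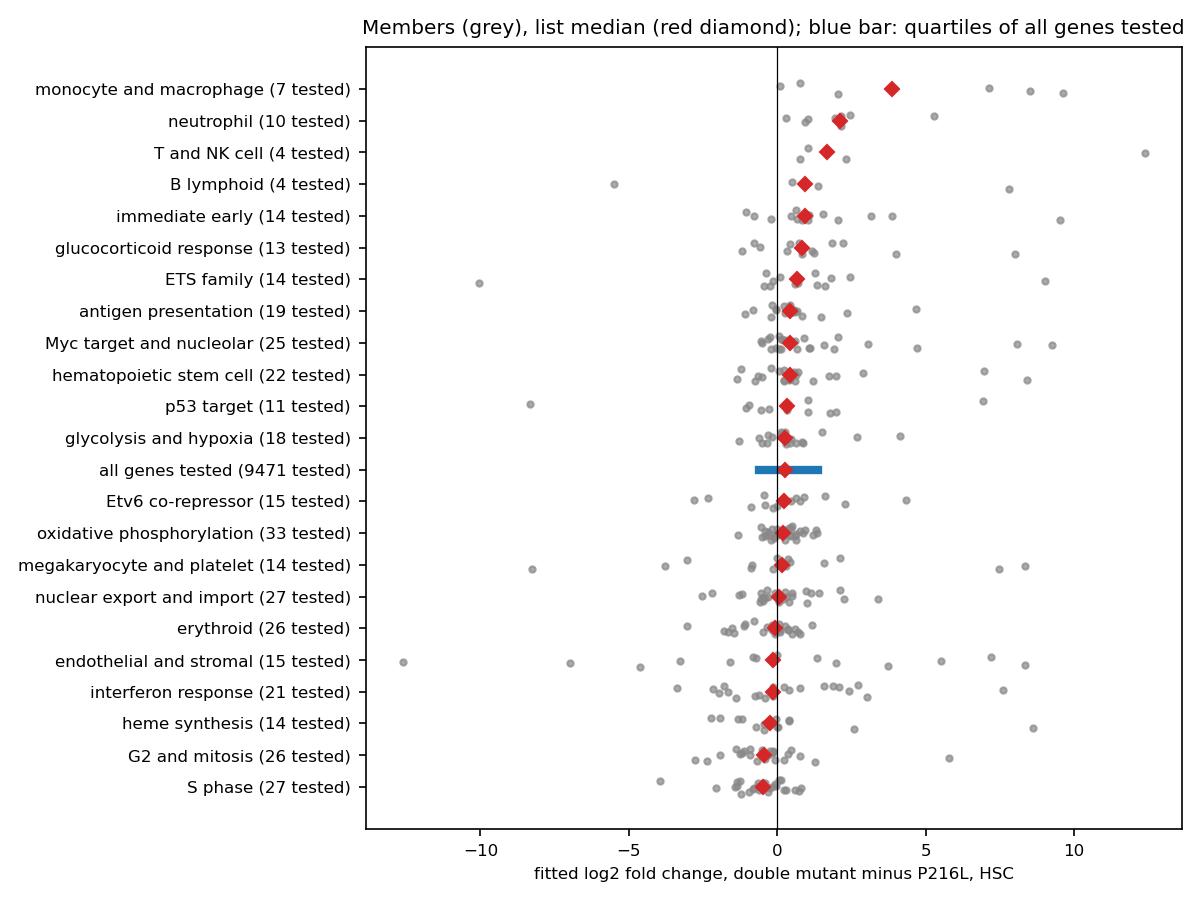
Fitted log2 fold change (double mutant minus P216L, HSC) of each tested list member (grey points) and each list's median (red diamonds); the blue bar spans the quartiles of all 9471 genes. Medians run from -0.47 for S phase to 3.85 for monocyte genes; points beyond 5 in size are mostly genes at 0 in a whole group, whose fitted values depend on the prior count.

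Genes that differed from WT in either mutant (10 higher, 0.106%, and 0 lower in P216L; 5 higher, 0.0528%, and 2 lower, 0.0211%, in the double mutant; edgeR adjusted p) were set side by side, with no direction read from them because the comparisons share libraries. Rrm1, a ribonucleotide reductase subunit, was at 607, 322 and 898 normalised CPM in the double mutant and 459, 710 and 1665 CPM in P216L. The histone variant gene H2az1 was at 1878, 1030 and 2627 against 1563, 1571 and 2652 CPM and the import adaptor Kpna2 at 528, 998 and 2373 against 838, 552 and 1796 CPM. Mcm2 was at 208, 87.2 and 865 against 423, 663 and 1666 CPM. All overlapped.

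The same comparison in MEP called 12 genes (0.111% of 10773), 1 higher (0.00928%, Bex4) and 11 lower (0.102%) in the double mutant, and 5 to 20 with 1 MEP library left out (20 without P216L replicate 3, 5 without double-mutant replicate 1 or P216L replicate 1). The MEP libraries were deeper and closer to each other: the biological coefficient of variation was 0.174 in MEP and 1.6 in HSC. All 12 were tested in HSC, where 0 passed, 5 had the sign seen in MEP and 7 the opposite sign. These HSC values are named because of the MEP calls, and were picked from the 12 after they were seen.

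Cul3, the scaffold of a cullin ubiquitin ligase, was at 77.5, 77.8 and 79.2 CPM in double-mutant MEP and 187, 153 and 137 CPM in P216L MEP. In HSC it was at 139, 106 and 85.8 against 700, 345 and 553 CPM, without overlap, with a log2 fold change of -2.27 ± 1.27 (SE; edgeR adjusted p = 0.814) beside -1.03 ± 0.14 in MEP. Plek, a platelet and leukocyte signalling protein, was also below without overlap in HSC, at 9.21, 155 and 0 against 530, 631 and 171 CPM.

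Znrf2 and Spon2, lower in MEP, were above without overlap in HSC. Znrf2 was at 138, 49.1 and 154 against 0, 1.28 and 32.6 CPM and Spon2 at 51.0, 87.2 and 63.7 against 0, 1.28 and 0 CPM. The methyl-CpG binding gene Mbd2, first by p in MEP, overlapped in HSC at 410, 161 and 597 against 86.2, 436 and 309 CPM, as did Ybx3 at 889, 275 and 1325 against 800, 759 and 1466 CPM and Qk at 193, 243 and 112 against 0, 174 and 174 CPM. Tested directly in 1 fit of all libraries, the change differed between HSC and MEP in 0 of 12036 genes (edgeR adjusted p), with 1041 higher (8.65%) and 418 lower (3.47%) at an unadjusted p under 0.05. DESeq2 called 430 and voom 0; without HSC P216L replicate 3 edgeR called 24. The adjusted p of the difference was 0.377 for Znrf2, 0.271 for Spon2 and 1 for Cul3.

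**Figure D5:**
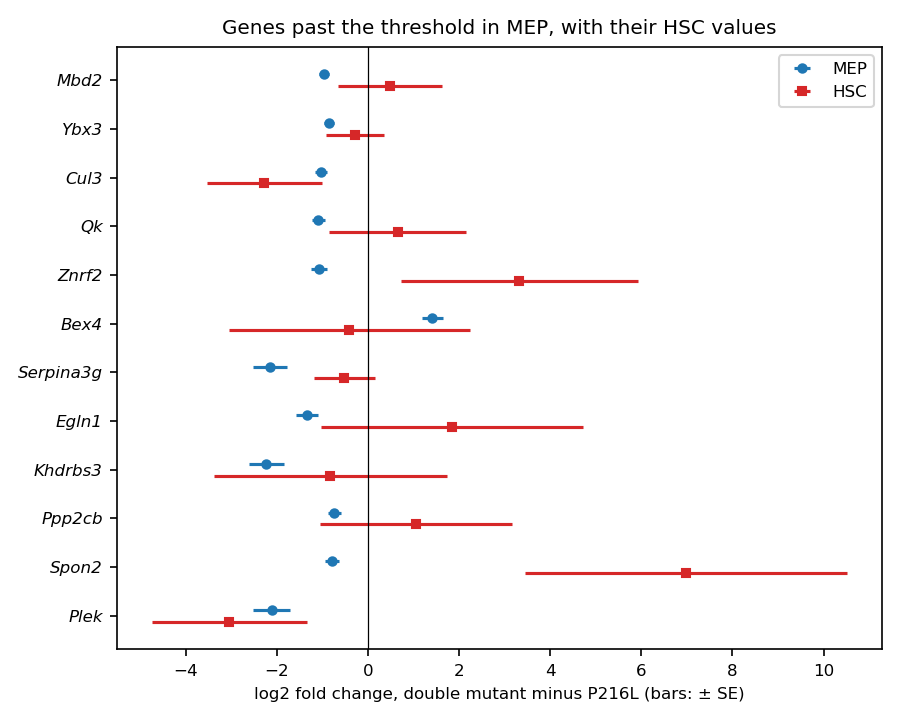
Log2 fold change of the double mutant against P216L with its SE for the 12 genes past the threshold in MEP (blue), and the same genes in HSC (red). The HSC errors are wider for every gene; Cul3 and Plek lie below 0 in both, and Znrf2 and Spon2 on opposite sides.

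Whether S211I had the same change on P216L as on WT was tested as a difference of differences over the 11 HSC libraries. It differed for 6 genes (0.0634% of 9471), all with a lower value on P216L (edgeR adjusted p 7.8e-06 to 0.0462): Lig3, Rrm1, Wdr44, Mcm2, Golm1 and Mtfr1. This test uses the double-mutant and P216L libraries again, and is not independent of the calls above. Rrm1 was at 10.2, 2.21 and 61.2 CPM in WT and 774 and 1562 CPM in S211I, and Mcm2 at 0, 0 and 67.8 CPM in WT and 43.1 and 1125 CPM in S211I. The library labelled S211I replicate 2 correlated at 0.989 with the mean of the MEP libraries, against 0.552 to 0.855 for the 6 libraries compared; without it, 2 genes were called in this test (Lig3 and Gpx3). With each other HSC library left out the count was 1 to 16, with 1 without P216L replicate 1 or WT replicate 1 and 16 without WT replicate 3.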

How the data were processed

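Low-input RNA from sorted mouse HSC and MEP was sequenced, with SMART-Seq v4 libraries per the labels' protocols. The authors deposited estimated counts per Entrez gene; Salmon, FastQC and GRCm39 are named in the submitters' processing notes, without versions. Estimated counts were rounded. Of 30519 genes, 30211 took a symbol from a GRCm38.p6 annotation; the other 308 held 0.0442% of counts. No coordinates were used.

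All 11 HSC libraries in 4 groups were fitted with edgeR 4.0.16 (limma 3.58.1, R 4.3.3): TMM scaling, a minimum count of 10 and total of 15, robust quasi-likelihood tests, Benjamini-Hochberg at 0.05. MEP were fitted alike, and all 21 libraries jointly for the difference between cell types. Normalised CPM uses TMM; plain CPM and list sums use library totals. In the 6 libraries 3 counts equal 1.33 to 8.12 plain CPM. The SE is the log2 fold change over the root of F. Values of SE and p cover only the spread between libraries. No 2 libraries of a group were copies (chi-square per degree of freedom 37.5 to 70.6). The tests were tried on simulated counts.

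Named genes were those past the threshold, the 12 with the smallest p in each direction with at least 10 counts in at least 2 libraries of the higher group, up to 3 per list plus the first 3 markers, Etv6, and genes called against WT; predicted and sex-linked genes were left out, and other genes were named after their values were seen, and 3 genes are not reported here. The members, the gene lists and these rules were chosen with earlier results of these data known. Alternatives were relative log expression scaling, no filter, replicate number as a block, DESeq2 1.42.0, voom, the compared groups alone, each library left out, fits without libraries near MEP, a Y-linked covariate and thinning to 151215 counts; fits without 2 libraries were added after seeing the data.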

Additional observations from a re-analysis of the deposited data

Results flagged for a closer look

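Results are listed here because the change with S211I differed between the P216L and WT backgrounds in HSC, by the interaction test itself (edgeR, Benjamini-Hochberg adjusted). The difference of log2 fold changes was -17.93 for Lig3 (adjusted p = 7.8e-06), -6.17 for Rrm1 (0.000426), -18.05 for Wdr44 (0.0442), and -5.88 for Mcm2, -13.32 for Golm1 and -11.97 for Mtfr1 (0.0462 each). For Lig3, Wdr44, Golm1 and Mtfr1, all libraries of at least 1 group were at 0, and the fitted size depends on the prior count and is no measure of fold. Wdr44 was at 1041 normalised CPM in P216L replicate 1 and at 8.14 CPM or less in the other 5 libraries compared. Without P216L replicate 1, or without WT replicate 1, Rrm1 was the only gene called, so the call of Lig3 was lost. The S211I group has 2 libraries; without the one labelled replicate 2, the calls of Rrm1, Wdr44, Mcm2, Golm1 and Mtfr1 were lost, and the difference was -2.06 for Mcm2.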

How the results depend on the processing

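Against 2 genes called in HSC double mutant against P216L, relative log expression scaling called 1, DESeq2 43 and voom 1, and the count was 0 in the compared groups alone, with the Y-linked covariate, in thinned libraries and in both fits without 2 libraries that were chosen after seeing the data; without the 3 HSC libraries nearest to MEP it was 4. The range with 1 library left out was 0 to 4. No filter and the fit without the library labelled S211I replicate 2 kept both genes. Against 12 genes in MEP, no filter called 47, DESeq2 27 and voom 34, with 5 to 20 with 1 library left out. Against 0 for the difference between cell types, no filter called 1 and DESeq2 430, with 0 to 24 with 1 library left out. Against 6 for the difference between allele backgrounds, relative log expression scaling called 10, no filter 1, DESeq2 106 and voom 84, with 1 to 16 with 1 library left out. The deviations of same-numbered HSC libraries correlated weakly (r = -0.0108, 0.0346 and 0.0414, against -0.0627 to 0.0298 for differently numbered ones). With libraries this variable, the check cannot tell whether same-numbered libraries share an origin, and the labels do not say. A replicate block gave 0, 9, 0 and 10 calls in these 4 comparisons. With 1 library left out, signs turned within these ranges: Ngp -0.55 (without double-mutant replicate 1) to 3.05, Ybx3 -0.75 to 0.17 (without double-mutant replicate 2; 0.09 without P216L replicate 3), and Rrm1 -0.99 to 0.061 (without P216L replicate 3). Signs also reversed for Fos with voom (-0.82), Mbd2 without P216L replicate 1 and double-mutant replicate 3 (-0.35), and Hif1a in the compared groups alone (-0.69), although Hif1a is at 0 in every P216L library. The cause was not tested. Low depth limits genes at few counts most: 3 counts equal 8.12 plain CPM in double-mutant replicate 2 and 7.39 in P216L replicate 1, so a 0 there is a weaker limit than in double-mutant replicate 3 (1.33).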
